A study of Mus musculus with 4 samples.

Results

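The genes of fatty acid uptake and storage described here were Fabp4, Fabp5, Cd36, Lpl, Plin2, Acsl1, Pnpla2 and Dgat2. They were taken by name from the gene table of the series, and all 8 were found among its 31054 features. Their transcripts were followed across adipose progenitor cells (APCs), macrophages, endothelial cells and the other cells of the stromal vascular fraction (SVF), the adipose tissue that remains once the mature adipocytes are removed. The SVF was taken from the gonadal fat of male mice aged 18 months that carried p16-CreERT2 and a tdTomato reporter in Rosa26, so that tamoxifen turns on the red reporter in cells using the p16 promoter. Every group carried both alleles and had received tamoxifen. A sort on the leukocyte protein CD45 and on the reporter gave the 4 groups, CD45- cells with or without the reporter (Tom+ and Tom-) and CD45+ cells likewise, and each group is 1 library. No p-value is given, since no group has a second library, and a fit over all 4 libraries with the reporter and the CD45 label as terms was not run. All intervals are 95% intervals that cover counting error only. The reporter marks cells in which Cre was active during the tamoxifen injections, and the number of mice behind each library was not given in the sources used here.

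Fat reaches adipose tissue as triglyceride in lipoproteins. Lipoprotein lipase frees the fatty acids at the capillary wall, CD36 takes them up, fatty acid binding proteins carry them inside the cell, and acyl-CoA synthetases activate them. DGAT enzymes complete triglyceride, perilipins coat the droplet in which it is kept, and adipose triglyceride lipase starts its breakdown. Mature adipocytes hold most of this machinery, but capillary endothelium, macrophages and committed progenitors of fat are known to use parts of it too.

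The libraries held 3886, 3674, 1927 and 4391 cells after filtering, with the CD45- pair first and Tom+ before Tom- in each pair, an order kept throughout. Median depths lay between 18331 and 19516 UMIs, the unique molecular identifiers that count molecules. Levels are in CPM, the counts of a gene scaled to the total UMIs of the same cells. The tdTomato transcript followed its labels, at 713 and 714 CPM in the Tom+ libraries against 15.8 and 18.7 CPM in the Tom- libraries. Ptprc, which encodes CD45, did not follow the CD45 labels. It stood at 217 and 157 CPM in the libraries labelled CD45- and at 223 and 188 CPM in those labelled CD45+, and each library held APC-like as well as macrophage-like cells. The CD45 labels are therefore used as names only. Barcodes were also shared between libraries, from 26 to 4394 for any 2 of them. Of the 13878 kept cells, 3555 carried a barcode that occurred in another library. At most 16 of the barcodes shared by 2 libraries were kept as cells in both. Leaving out the cells with a shared barcode took more Tom- than Tom+ cells. Among APC-like cells of the pair labelled CD45-, 224 of 262 Tom+ and 771 of 1531 Tom- cells remained. In the other pair 92 of 106 and 1025 of 1717 did. Leaving out all cells with a shared barcode changed the highest class of none of the 8 genes. The ratios of the called genes, and of others that moved, are given with and without these cells.

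Clustering without the genes of fatty acid handling gave 30 clusters, of which 24 took the names of 14 classes from their markers and 6 kept a number only. The classes that matter most here were APC-like cells (262, 1531, 106 and 1717 cells), macrophage-like cells (810, 599, 411 and 765) and blood endothelial-like cells (96, 111, 55 and 143). B cell-like cells served as a class expected to lack most of these transcripts.

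Promoter sequence from RefSeq (build GRCm38.p6, the same as mm10) was at hand for Cd36, Plin2, Acsl1 and Pnpla2. The 250 bases before a RefSeq start are shown for Cd36 and Plin2, both of which were high in macrophage-like cells. The Cd36 window lies within the span of the gene, 17781690 to 17888801, and not before its outer end. Capitals mark the matches to 4 motifs searched on both strands.

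Cd36, chr5:17835897-17836146, minus strand: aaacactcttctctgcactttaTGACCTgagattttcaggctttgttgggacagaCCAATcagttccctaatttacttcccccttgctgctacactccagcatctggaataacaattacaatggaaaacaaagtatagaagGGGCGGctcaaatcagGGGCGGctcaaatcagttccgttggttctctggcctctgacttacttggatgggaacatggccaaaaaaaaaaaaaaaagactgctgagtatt

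Plin2, chr4:86670060-86670309, minus strand: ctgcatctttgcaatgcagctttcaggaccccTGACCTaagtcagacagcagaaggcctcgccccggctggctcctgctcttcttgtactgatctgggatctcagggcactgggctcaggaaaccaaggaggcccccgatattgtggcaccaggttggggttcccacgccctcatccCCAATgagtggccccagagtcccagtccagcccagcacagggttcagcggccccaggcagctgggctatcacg

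The motifs were AGGTCA, the half-site of nuclear receptors such as PPARG, whose reverse complement is TGACCT, the CCAAT box, the GC box GGGCGG, and TATAAA. Both windows held AGGTCA on the reverse strand and CCAAT on the forward strand, Cd36 also held GGGCGG at 2 places, and neither held TATAAA. Over 32851 promoters of this length, 14.0% held AGGTCA, 33.8% CCAAT, 32.7% GGGCGG and 12.4% TATAAA, so each match is common and is given as a description only.

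Fabp4 and Fabp5 encode the carriers of fatty acids in the cytoplasm and lie on chromosome 3 of mm10, at 10204088 to 10208576 on the minus strand and at 10012548 to 10016607 on the plus strand, 187480 bases apart. Their levels were spread over different classes. Fabp4 was highest in blood endothelial-like cells, at 29090 (28818 to 29364), 35420, 27158 and 34189 CPM in the 4 libraries, 15.6 times the next class or cluster on average. APC-like cells followed among the named classes with 1056, 840, 981 and 916 CPM, and macrophage-like cells with 432, 335, 423 and 352 CPM. None of these 3 classes overlapped another. B cell-like cells held 51.8 to 69.5 CPM.

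A small class thus carried a large part of the Fabp4 UMIs. Blood endothelial-like cells were 2.47%, 3.02%, 2.85% and 3.26% of the cells and held 67.8%, 47.9%, 70.6% and 49.8% of all Fabp4 UMIs. APC-like cells were 41.7% and 39.1% of the cells in the Tom- libraries and held 39.9% and 40.8% of Fabp4 UMIs there. Per cell, Fabp4 in blood endothelial-like cells ranged from 7978 CPM at the 10th percentile to a median of 36187 and 56438 CPM at the 90th percentile, with a UMI in 96.8% of cells. In APC-like cells the median was 347 CPM and the 90th percentile 2350 CPM. After thinning to 2000 UMIs per cell, so that all cells had 1 depth, 80.0% to 100% of blood endothelial-like, 47.2% to 52.1% of APC-like and 30.4% to 34.2% of macrophage-like cells had a Fabp4 UMI, against 6.94% to 15.9% of B cell-like cells. The median depths before thinning were 21450 to 23434 UMIs in APC-like cells, and B cell-like cells as a cluster had 5842.

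**Figure D1:**
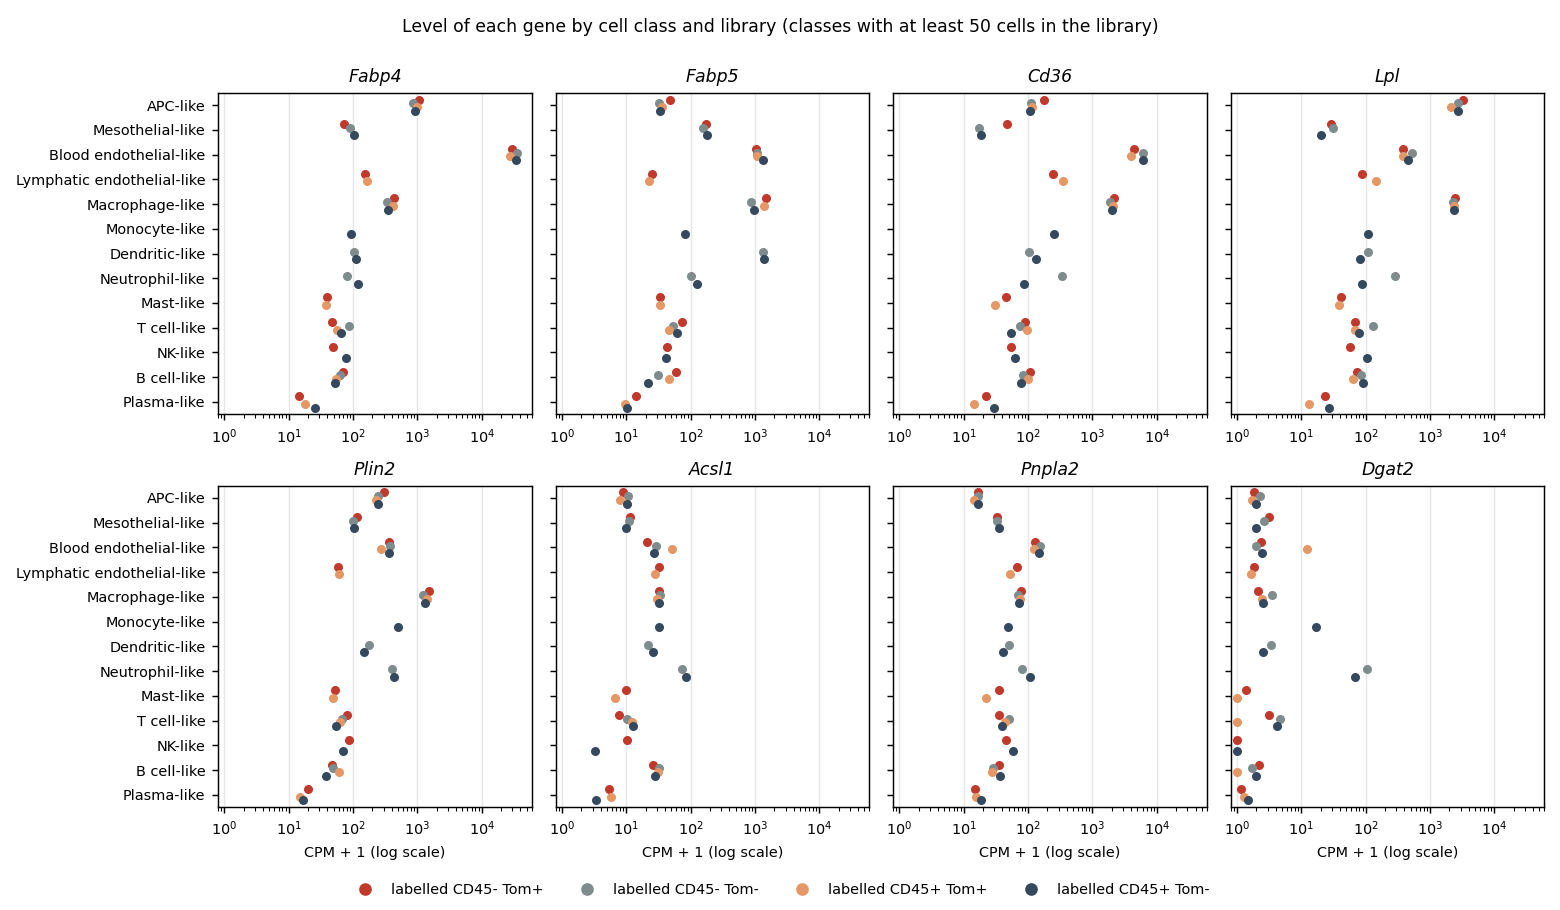
Each panel shows 1 gene, with its level in CPM plus 1 on a log axis, by class of cells on the vertical axis; each point is 1 library, coloured by its label, in classes with at least 50 cells in that library. Fabp4 and Cd36 peaked in blood endothelial-like cells, Plin2 in macrophage-like cells, Lpl in APC-like and macrophage-like cells, and Dgat2 in neutrophil-like cells.

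The blood endothelial-like class joined 2 clusters that differed widely in these genes. Cluster 13, with 375 cells, was led by Rbp7, Aqp7, Btnl9 and Cd300lg, and held 35037 to 37800 CPM of Fabp4 in the 4 libraries. Cluster 27, with 30 cells, was led by Vwf, Selp and Plvap, and held 487 and 892 CPM of Fabp4 in the 2 libraries with at least 10 of its cells. Over all libraries, Fabp4 was 57.2 times, Cd36 49.5 times, Fabp5 21.3 times and Lpl 14.8 times as high in cluster 13 as in cluster 27, while Pnpla2 was 1.61 times as high. Cluster 13 also raised 6 of the 7 mural cell markers, and Rgs5 of that list stood among its 10 leading genes beside the endothelial Cldn5. Of the 405 cells of the class, 8 had more mural than endothelial marker UMIs. Lymphatic endothelial-like cells, with 178 and 86 cells in the Tom+ libraries and 1 and 0 in the Tom- libraries, held 155 and 164 CPM of Fabp4.

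Transcripts listed as defining mature adipocytes were found in the blood endothelial-like cells at low levels. The summed level of 9 such genes was 329, 190, 627 and 229 CPM there, against 9.70 to 47.8 CPM in APC-like cells and 13.9 to 21.2 CPM in macrophage-like cells. Lipe of that list was found more widely, at 66.5, 76.0, 67.3 and 74.3 CPM in blood endothelial-like cells. Its 8.05 to 10.6 CPM in macrophage-like cells was the largest part of the sums there. Adipoq, the gene of adiponectin, stood at 23.9, 14.0, 65.3 and 23.8 CPM, and Car3 at 164, 61.0, 325 and 89.5 CPM in the blood endothelial-like cells. Their part in the endothelial levels was not tested.

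Fabp5 followed another order. Dendritic-like cells held 1326 and 1395 CPM in the Tom- libraries, the only ones with at least 50 of them, macrophage-like cells 1514, 867, 1361 and 984 CPM, and blood endothelial-like cells 1037, 1071, 1063 and 1312 CPM. Without shared barcodes the macrophage-like values were 1084, 475, 1152 and 644 CPM. With all cells kept, the macrophage-like range overlapped both the dendritic-like and the blood endothelial-like range. Macrophage-like cells thus had no order against either class beyond the spread between libraries. The dendritic-like values lay above every blood endothelial-like value, but narrowly. The interval of the lower dendritic-like value, 1326 (1271 to 1382) CPM, held the highest blood endothelial-like value of 1312 CPM. Values of these classes without shared barcodes are not given here, apart from the macrophage-like ones. Dendritic-like cells were uneven, with a median of 47.5 CPM per cell, 4652 CPM at the 90th percentile and a Fabp5 UMI in 31.0% and 29.6% of cells after thinning. In macrophage-like cells this share was 43.6% to 54.8%, and in blood endothelial-like cells 58.2% to 65.7%. APC-like cells held 31.9 to 47.4 CPM, within the 20.9 to 59.3 CPM of B cell-like cells, and their thinned share, 4.97% to 8.49%, was above that of B cell-like cells in 1 of 4 libraries.

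Cd36, the gene of the fatty acid and scavenger receptor (chromosome 5, 17781690 to 17888801, minus strand), was highest in blood endothelial-like cells too. It reached 4351, 6125, 3993 and 6152 CPM there and 2141, 1850, 2096 and 2045 CPM in macrophage-like cells, with no overlap. Macrophage-like cells, being more numerous, held 65.0% to 70.9% of Cd36 UMIs in the 4 libraries and blood endothelial-like cells 10.9% to 18.5%. Lymphatic endothelial-like cells held 244 and 351 CPM. In APC-like cells Cd36 was at 174, 111, 113 and 105 CPM, above the 105, 81.7, 98.5 and 77.4 CPM of B cell-like cells in every library. Its thinned share went the other way. It was 19.9%, 12.0%, 14.2% and 12.3% of APC-like cells, below the 23.0%, 17.4%, 16.7% and 12.8% of B cell-like cells in every library.

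Lpl encodes lipoprotein lipase, which parenchymal cells secrete and which works at the capillary wall (chromosome 8, 68880491 to 68907448, plus strand). It was at 3221, 2762, 2143 and 2684 CPM in APC-like cells and at 2473, 2272, 2325 and 2363 CPM in macrophage-like cells. The highest class was APC-like on average, but the value of the library labelled CD45+ Tom+ fell below all 4 macrophage-like values, so the classes overlapped. Without shared barcodes they did not, with 3369, 2838, 2280 and 2760 CPM in APC-like and 2170, 2057, 2005 and 1766 CPM in macrophage-like cells. After thinning, 80.2% to 86.2% of APC-like and 65.8% to 70.3% of macrophage-like cells had an Lpl UMI, against 13.8% to 21.7% of B cell-like cells. Blood endothelial-like cells held 383 to 520 CPM. Of the other lipid genes there, Gpihbp1, which carries lipoprotein lipase to the lumen, had a mean of 1708 CPM and Mgll, the lipase of monoglycerides, one of 1792 CPM.

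Which cells held most of the Lpl UMIs differed between the Tom+ and Tom- libraries. In the Tom- libraries APC-like cells held 76.3% and 72.8% and macrophage-like cells at most 24.0%. In the Tom+ libraries APC-like cells held 22.6% and 15.4% and macrophage-like cells 57.7% and 56.4%. APC-like cells made up 6.74% and 5.50% of the Tom+ libraries.

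**Figure D2:**
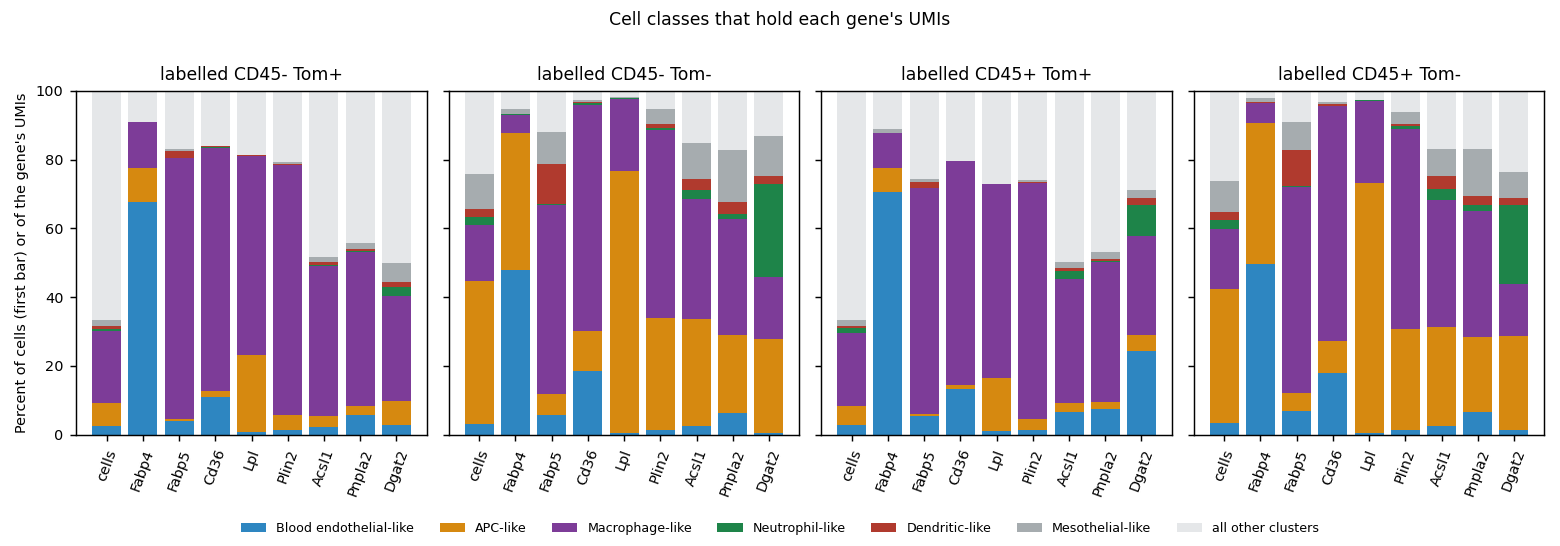
Stacked bars give, for each library, the percent of cells in each class (first bar) and the percent of each gene's UMIs held by that class (other bars), on an axis from 0 to 100. Blood endothelial-like cells, 2.47% to 3.26% of cells, held 47.9% to 70.6% of Fabp4 UMIs, and Lpl moved from APC-like cells in the Tom- libraries to macrophage-like cells in the Tom+ libraries.

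Plin2, whose product coats lipid droplets in many cell types (chromosome 4, 86648386 to 86670060, minus strand), was highest in macrophage-like cells, at 1521, 1218, 1406 and 1299 CPM. A UMI was present in 79.1% to 82.0% of these cells after thinning. Monocyte-like cells held 499 CPM in the 1 library with at least 50 of them, neutrophil-like cells 397 and 439 CPM, blood endothelial-like cells 267 to 369 CPM and APC-like cells 228 to 307 CPM. The APC-like and blood endothelial-like ranges overlapped.

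Acsl1, an acyl-CoA synthetase (chromosome 8, 46471037 to 46536051, plus strand), and Dgat2, the enzyme of the last step of triglyceride synthesis (chromosome 7, 99153658 to 99182719, minus strand), were low in most classes and, among classes with at least 50 cells in a library, highest in neutrophil-like cells. Acsl1 reached 72.8 and 84.8 CPM there in the Tom- libraries, 28.9 to 32.2 CPM in macrophage-like cells and 7.09 to 9.58 CPM in APC-like cells, under the 25.1 to 31.7 CPM of B cell-like cells. A cluster of 28 epithelial-like cells, led by Gpx5, Lcn8 and other genes of the epididymis and found only in the Tom+ libraries, held more Acsl1, 170 CPM (146 to 197).

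Dgat2 reached 106 (77.1 to 141) and 66.4 (46.5 to 91.9) CPM in neutrophil-like cells and 16.0 CPM in monocyte-like cells. It lay between 0.746 and 2.54 CPM in APC-like and macrophage-like cells. After thinning, 22.4% and 13.8% of neutrophil-like cells had a Dgat2 UMI, against 0 to 0.943% of APC-like cells. The neutrophil-like values rest on 45 and 36 UMIs, yet those cells, 2.31% and 2.80% of the libraries, held 27.1% and 22.9% of all Dgat2 UMIs in the Tom- libraries.

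Pnpla2, which encodes adipose triglyceride lipase (chromosome 7, 141455198 to 141460743, plus strand), was at 128, 152, 123 and 144 CPM in blood endothelial-like cells. Neutrophil-like cells had 79.8 and 105 CPM and macrophage-like cells 68.3 to 76.7 CPM, which lay below every blood endothelial-like value. APC-like cells had 13.4 to 15.8 CPM, below the 26.9 to 35.1 CPM of B cell-like cells. Of the 7 genes that reached 5 CPM (all but Dgat2), 3 (Fabp4, Lpl and Plin2) had a higher thinned share in APC-like than in B cell-like cells in 4 of 4 libraries, where 38.6% of all genes did. In macrophage-like cells 6 of 7 did, beside 38% of all genes, and in blood endothelial-like cells 6 of 7, beside 32.7%, with Acsl1 the exception in both.

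Among APC-like cells Fabp4, Lpl, Cd36 and Plin2 were each highest in 1 cluster and lowest in another, the same 2 clusters for all 4 genes. These genes had been kept out of the clustering, but genes that move with them had not, so the differences between clusters are a description. The share of all genes that were highest and lowest in the same 2 clusters is not given here. Cluster 5 raised the committed progenitor markers Fgf10, Enpp6 and Mrap, and cluster 21 the interstitial progenitor markers Dpp4 and Pi16. Fabp4 was at 1713 CPM in cluster 5, at 989 CPM in cluster 0, at 263 CPM in cluster 6, which raised Ptx3 and Il6, and at 38.7 CPM in cluster 21, a fall of 44.3 times from end to end. By library, cluster 5 held 1966, 1589, 3171 and 1714 CPM, and cluster 21 held 36.0 to 49.3 CPM in the 3 libraries with at least 10 of its cells. No value of one cluster came near the other.

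Lpl ran in the same order, from 4515 CPM in cluster 5 to 2971 in cluster 0, 1416 in cluster 6, 968 in cluster 19, led by Cthrc1 and Mfap4, and 424 CPM in cluster 21. A small interferon-response cluster, number 26 with Ifit3 and Cxcl10, held 3803 CPM. Cd36 was 291 CPM in cluster 5 and 63.4 CPM or less in every other APC-like cluster over all libraries. Plin2 ran from 438 CPM in cluster 5 to 88.3 CPM in cluster 21. Fabp5, Pnpla2 and Acsl1 did not share this order. Fabp5 was 41.7 CPM in cluster 0 and 34.2 CPM in cluster 5, where the 4 libraries held 82.5, 35.5, 26.2 and 25.8 CPM. Pnpla2 was 13.6 CPM in cluster 5 and in cluster 21, and Acsl1 was 8.35 and 10.9 CPM. The share of APC-like cells in cluster 5 was 25.2% (20.1 to 30.9), 23.9%, 17.0% (10.4 to 25.5) and 24.4%, with overlapping intervals. Cluster 19 made up 12.3% (6.69 to 20.1) against 5.47% (4.45 to 6.66) of Tom+ and Tom- cells in the pair labelled CD45+, without overlap. In the pair labelled CD45- it was 6.87% (4.12 to 10.6) against 4.96% (3.93 to 6.17), with overlap.

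**Figure D3:**
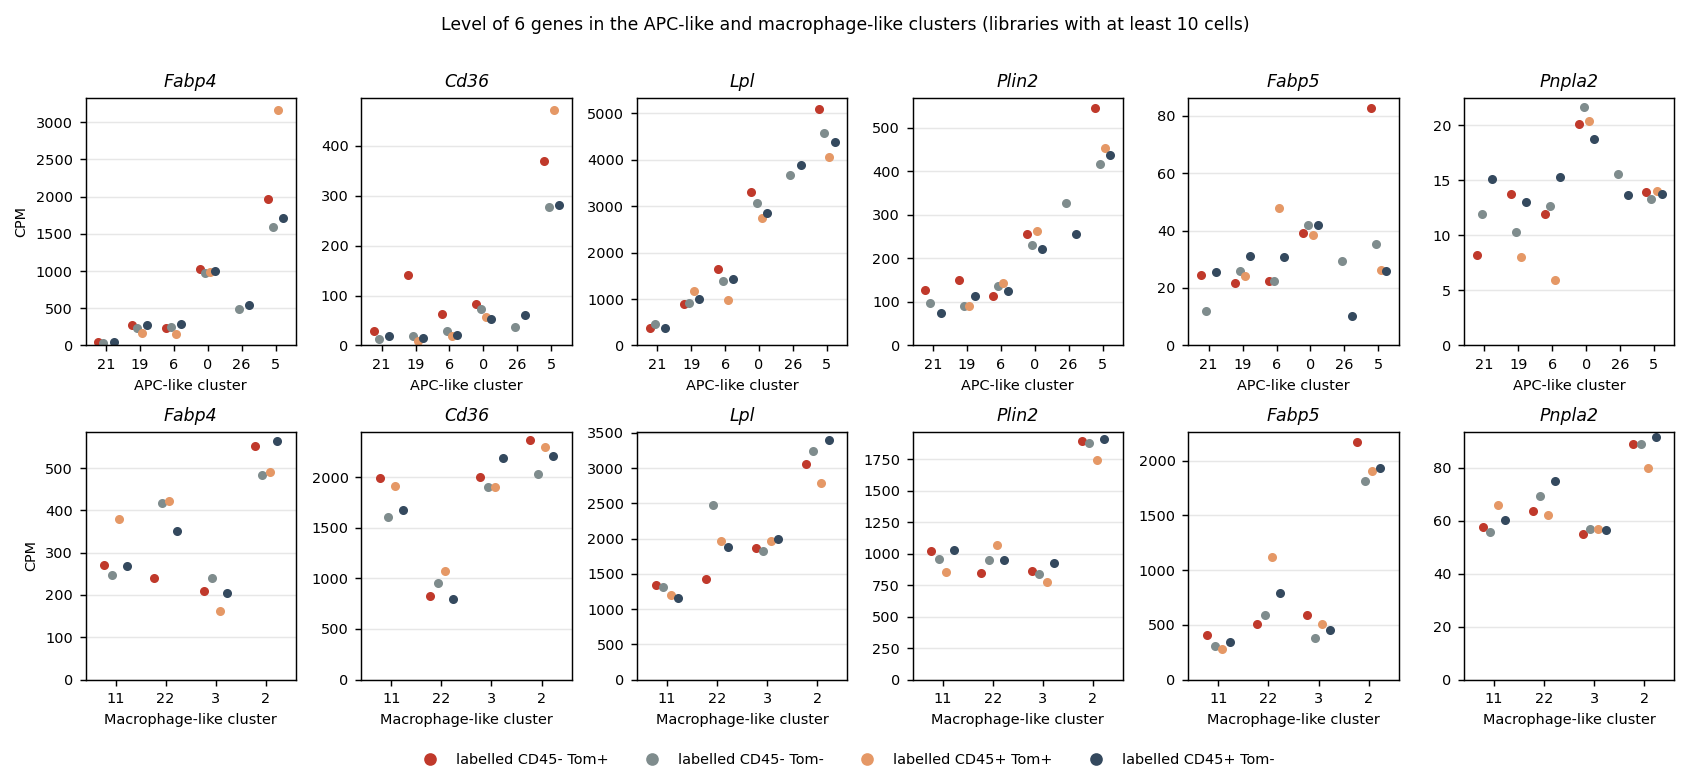
Levels in CPM on linear axes that start at 0, for 6 genes in the APC-like clusters (top) and macrophage-like clusters (bottom), ordered by Lpl; each point is 1 library with at least 10 cells of the cluster. Fabp4, Cd36, Lpl and Plin2 were highest in APC-like cluster 5, and Fabp5, Lpl and Plin2 in macrophage-like cluster 2.

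Among macrophage-like cells, cluster 2 stood highest for 6 of the 7 genes with a mean of 5 CPM over these clusters (all but Acsl1), as it did for 20.1% of all genes. It raised the markers of lipid-associated macrophages and was led by Gpnmb, Atp6v0d2 and Trem2. Fabp5 was 1811 to 2166 CPM there by library, 378 to 594 CPM in cluster 3, led by Mmp12 and Arg1, 280 to 407 CPM in cluster 11, led by Marco and Vsig4, and 505 to 1115 CPM in cluster 22, led by Pf4. Plin2 was 1746 to 1909 CPM in cluster 2 and at most 1071 CPM in the other clusters. Lpl was 3105 CPM in cluster 2 over all libraries and 1264 to 1917 CPM in the rest. Cd36 was more even, at 2274, 2045 and 1828 CPM in clusters 2, 3 and 11, and lower, at 884 CPM, in cluster 22. Pnpla2 reached 87.5 CPM in cluster 2 and 56.4 to 67.2 CPM elsewhere.

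The macrophage-like cells of the Tom+ libraries held more of cluster 2. It made up 54.1% (50.6 to 57.5) and 52.1% (47.1 to 57.0) of them in the Tom+ libraries, against 27.9% (24.3 to 31.7) and 29.8% (26.6 to 33.2) in the Tom- libraries. Cluster 3 went the other way, with 16.7% and 17.5% against 51.1% and 49.0%. Cluster 3 had F10, a monocyte list gene, and no macrophage list gene among its 10 leading genes, so the ratios of macrophage-like cells are given without it as well.

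The comparison of Tom+ with Tom- cells asks whether cells marked by the reporter differ in these genes from other cells of their class. A gene was called at a ratio past 1.5-fold in either direction if its mean over the pair reached 5 CPM. Few of the 8 genes were called. In APC-like cells 1 of 7 measured was called in the pair labelled CD45-, where 3.65% of all genes were, and 0 of 7 in the pair labelled CD45+, where 6.47% of all genes were. In macrophage-like cells it was 1 of 7 with a background of 6.28%, and 0 of 7 with a background of 7.17%. Dgat2 fell under the 5 CPM in both classes.

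In APC-like cells the called gene was Cd36, with 174 against 111 CPM in the pair labelled CD45-, which is 0.65 (0.55 to 0.75) on the log2 scale used for all ratios here. The other pair had 113 against 105 CPM, a ratio of 0.09 (-0.08 to 0.26). The excess of the first pair stood partly in clusters where Cd36 was low. Cd36 was 142 against 18.2 CPM in cluster 19, with 18 Tom+ cells, and 63.1 against 28.1 CPM in cluster 6. In cluster 5, where Cd36 was highest, the first pair had 369 against 277 CPM, 0.42 (0.29 to 0.53). There the other pair had 473 against 282 CPM, 0.75 (0.55 to 0.94), with 18 Tom+ cells. Cluster 6 of the other pair had 19.4 against 20.9 CPM. With both libraries set to 1 mix of clusters the ratio over all APC-like cells was 0.48, and 0.53 in the other pair. Without shared barcodes it was 0.90 and 0.55. The call was lost with marked doublets kept (0.49).

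Fabp4 in APC-like cells had ratios of 0.33 (0.29 to 0.37) and 0.10 (0.04 to 0.16). Within cluster 5 it was 1966 against 1589 CPM in the first pair and 3171 against 1714 CPM in the second, where only 18 Tom+ cells entered. Plin2 had 0.34 and -0.10. Fabp5 had 0.57 and 0.09, and -0.02 and 0.08 without shared barcodes. Without shared barcodes Fabp4 had 0.39 and 0.12, Plin2 0.28 and 0.18 and Lpl 0.25 and -0.28. With all cells Lpl had opposite signs in the pairs, 0.22 (0.20 to 0.24) and -0.32 (-0.36 to -0.29). The difference between the pairs was larger than counting error. Adipocyte-defining transcripts summed to 47.8, 16.1, 9.70 and 18.3 CPM in the APC-like cells of the 4 libraries, and their part in the ratios was not tested.

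In macrophage-like cells the called gene was Fabp5, with 1514 against 867 CPM (0.80, 0.77 to 0.84) in the pair labelled CD45- and 1361 against 984 CPM (0.47, 0.43 to 0.50) in the pair labelled CD45+. At 1 mix of clusters the ratios were 0.31 and 0.02, and without cluster 3 they were 0.38 and 0.10. By cluster, Fabp5 had 0.26 and -0.02 in cluster 2, 0.65 and 0.17 in cluster 3, 0.41 and -0.28 in cluster 11, and -0.23 and 0.50 in cluster 22. Of the 4 clusters, cluster 3 alone had a positive ratio in both pairs. Without shared barcodes the ratios over all macrophage-like cells were 1.19 and 0.84. B cell-like cells, where Fabp5 was low, also had more of it in the Tom+ libraries. They had 59.3 against 30.3 CPM (0.97, 0.44 to 1.52) and 44.8 against 20.9 CPM (1.10, 0.33 to 1.84). Other classes low in Fabp5 went both ways. The ratios were 0.49 and -0.44 in T cell-like cells, -0.57 and -0.72 in cluster 8 and 1.45 and 0.04 in cluster 12. Plasma-like cells had -0.097 in the pair labelled CD45+ and mesothelial-like cells 0.17 in the pair labelled CD45-. In barcodes below 2000 UMIs Fabp5 was lower in the Tom+ libraries, at 304 against 375 CPM and 165 against 419 CPM. The part of such low-level transcripts in the macrophage ratios was not tested.

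The ratios of Fabp4 and Plin2 also shrank when the mix of clusters was set equal. Fabp4 went from 0.37 and 0.26 over all macrophage-like cells to 0.05 and -0.07 at 1 mix of clusters, and Plin2 from 0.32 and 0.11 to 0.02 and -0.17. Without shared barcodes Fabp4 had 0.41 and 0.80, so that it passed 1.5-fold in the pair labelled CD45+, and Plin2 had 0.33 and 0.23. Without cluster 3 Fabp4 had 0.18 and -0.01 and Plin2 0.09 and -0.07. Cd36 had 0.21 and 0.04, and Lpl 0.12 and -0.02, over all macrophage-like cells. They had 0.26 and 0.14, and -0.04 and -0.15, without cluster 3, and 0.05 and -0.01, and 0.08 and 0.18, without shared barcodes. In cluster 3 itself Fabp4 had -0.21 and -0.32.

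**Figure D4:**
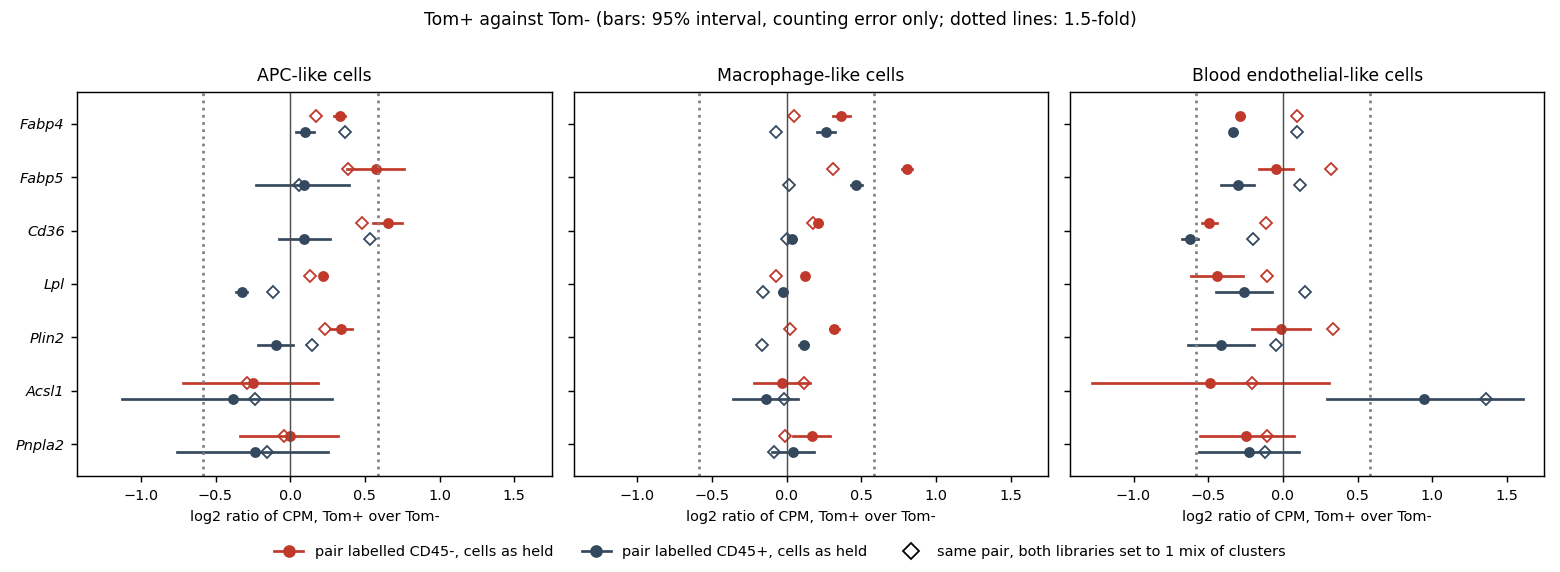
Log2 ratios of CPM, Tom+ over Tom-, for 7 genes in 3 classes; filled points are the cells as held with 95% intervals for counting error, open diamonds the same pair with both libraries at 1 mix of clusters, and dotted lines mark 1.5-fold. In macrophage-like cells the Fabp5 ratios of 0.80 and 0.47 became 0.31 and 0.02 at 1 mix, and in blood endothelial-like cells the Fabp4 ratios changed sign.

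In blood endothelial-like cells the background was far wider, with 28.4% of all genes past 1.5-fold in the pair labelled CD45- and 28.3% in the other, and 0 of 7 and 3 of 8 of the genes here were called. The 3 were Cd36, at 3993 against 6152 CPM (-0.62, -0.68 to -0.57), Acsl1, on 49 and 36 UMIs, and Dgat2, on 11 and 2 UMIs. Acsl1 had 0.94 (0.29 to 1.61) in that pair and -0.49 (-1.28 to 0.31) in the other. Fabp4 had -0.28 and -0.33. The Vwf-led cluster 27, low in Fabp4 and Cd36, held 15 of 96 and 13 of 55 of the Tom+ cells and 0 of 111 and 2 of 143 of the Tom- cells, and in cluster 13 alone Fabp4 had 0.09 and 0.09 and Cd36 -0.12 and -0.21. Without shared barcodes Fabp4 had -0.30 and -0.41 over the whole class, and Cd36 (-0.62) and Lpl (-0.65) were past 1.5-fold in the pair labelled CD45- too. In the pair labelled CD45+ Cd36 then had -0.72, Acsl1 0.90 and Dgat2 2.75. The sum of adipocyte-defining transcripts was also higher in the Tom+ library of both pairs.

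In the other 6 classes or unnamed clusters with at least 50 cells on both sides, 14 of 69 measured values were past 1.5-fold, 8 higher and 6 lower in Tom+ cells, where 22.1% of all values over the same classes and pairs were. Cd36 was 45.3 against 16.3 CPM in mesothelial-like cells of the pair labelled CD45-, a ratio of 1.47 (1.08 to 1.85). In plasma-like cells of the pair labelled CD45+ Cd36 was 13.4 against 29.0 CPM and Lpl 12.3 against 25.7 CPM. All of these levels lay below those of B cell-like cells.

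Over whole libraries, several ratios changed size or sign when the mix of classes was set equal. Lpl was 893 against 1706 CPM and 787 against 1712 CPM in Tom+ against Tom- libraries, or -0.93 and -1.12, where the median over all genes was -0.46 and -0.47. With both libraries set to 1 mix of classes the Lpl ratios became 0.15 and -0.15. Cd36 went from 0.50 and 0.24 to 0.04 and -0.13, and Fabp5 from 0.74 and 0.46 to 0.56 and 0.06. Plin2 was more alike, at 0.31 and 0.02 as measured and 0.27 and 0.09 at 1 mix. Fabp4 stayed negative, from -0.55 and -0.39 to -0.38 and -0.47. The unnamed cluster 24 entered that mix with very few Tom- cells. It held 61139 CPM of Fabp4 in 3 Tom- cells of the pair labelled CD45-, against 273 CPM in 25 Tom+ cells. In the pair labelled CD45+ it held 15196 CPM in 2 Tom- cells, against 2021 CPM in 85 Tom+ cells. The part of this cluster in the Fabp4 ratios at 1 mix was not tested.

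**Figure D5:**
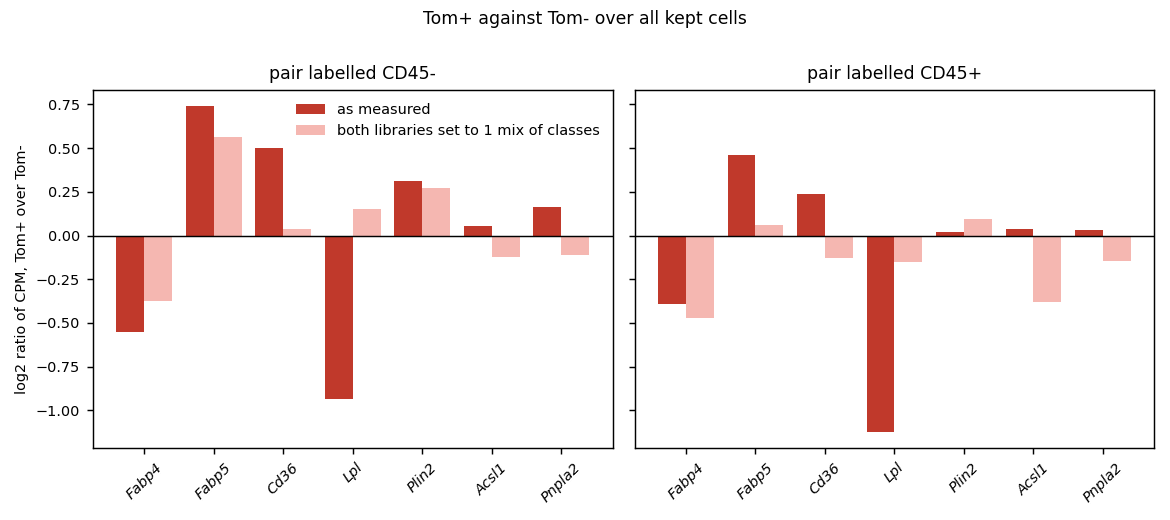
Bars from 0 give the log2 ratio of CPM, Tom+ over Tom-, over all kept cells of each pair, as measured (dark) and with both libraries at 1 mix of classes (light). The Lpl bars of -0.93 and -1.12 shrank to 0.15 and -0.15.

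The other 74 genes of fatty acid handling were read from lists of uptake, carriers, triglyceride synthesis, droplet coat, lipolysis, fatty acid synthesis and lipid-sensing regulators. In APC-like cells the most abundant were Cebpb, a regulator of adipogenesis, with a mean of 1370 CPM, the lipoprotein receptor Lrp1 with 1210 CPM and Cavin1, a caveolar coat gene, with 416 CPM. In macrophage-like cells they were Cebpb with 1226 CPM, the lysosomal lipase Lipa with 773 CPM and the acyl-CoA carrier Dbi with 529 CPM.

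In APC-like cells of the pair labelled CD45-, 0 of 11 uptake genes, 0 of 6 carriers, 0 of 10 genes of triglyceride synthesis, 1 of 7 droplet genes (Plin1, 13.2 against 4.95 CPM), 0 of 6 lipolysis genes, 0 of 8 synthesis genes and 0 of 6 regulators were past 1.5-fold, and their medians lay between -0.09 and 0.13 beside -0.03 over all genes. Over all genes of this comparison, 3.65% were past 1.5-fold in either direction. Car3 of the adipocyte-defining list was also past it, at 25.0 against 4.32 CPM. Among genes of at least 20 CPM the largest ratios were those of the desaturase Scd1, 0.55 (0.41 to 0.69), Hilpda, an inhibitor of lipolysis, 0.37, and G0s2, another, 0.24. They were -0.00, -0.41 and 0.04 in the pair labelled CD45+. The smallest were Cavin1, Acsl5 and Lrp1, at -0.27, -0.27 and -0.22, and at -0.40, -0.25 and -0.24 in the other pair.

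In macrophage-like cells of the pair labelled CD45-, 6.28% of all genes were past 1.5-fold in either direction. Of the lists, 1 of 11 uptake genes, 1 of 9 genes of triglyceride synthesis and 1 of 7 synthesis genes were lower past it in Tom+ cells. None of these 7 lists had a gene higher past it. The largest ratios were those of Mgll, 0.56, the acyltransferase Agpat3, 0.49, and the fatty acid transporter Slc27a1, 0.36, and in the other pair they were 0.13, 0.58 and -0.07. The 3 lower genes were Cav1, the gene of caveolin, at -1.08, the glycerol kinase Gk at -0.86 and the desaturase Scd2 at -0.84, against -0.28, -0.46 and -1.10 in the other pair. These list ratios are given for the cells as held, not at 1 mix of clusters.

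For each of the 8 genes, the genes with the most similar pattern were sought over 27 clusters of at least 50 cells, among 10088 genes, by Pearson's r of log2(CPM + 1). Clusters share libraries and depth, so r is a description. Plin2 was most like Lipa (0.93), Adap2 and Psap, Lpl most like Pltp (0.89), Ctsk and Cebpa, and Fabp5 most like Shtn1 (0.90), Tbc1d22a and Scarb1. Fabp4 was most like Hrct1 (0.88), Myo10 and Npr3, and Cd36 like Plxna4os1 (0.86), Sdc3 and Fam212a. Pnpla2 was most like Myo18a (0.90), Map3k11 and Ocel1, Acsl1 like Gngt2 (0.88), Osbpl9 and Rassf3, and Dgat2 like Vnn3 (0.88), Rpl3l and Mmp8. Among the 8 genes themselves, r was highest for Acsl1 with Pnpla2 (0.78) and Cd36 with Plin2 (0.76), 0.34 for Fabp4 with Fabp5 and -0.13 for Lpl with Pnpla2.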

How the data were processed

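Gonadal SVF cells were profiled with 10x Genomics 3' libraries. The authors made the count matrices with Cell Ranger 3.0.2 (per the submitters' processing notes) against mm10 with a tdTomato row. The deposited values are whole-number UMI counts per gene and barcode, without normalization. The study's own limits were applied to barcodes (more than 1000 but fewer than 7000 genes, mitochondrial share below 8%), and doublets were left out by Scrublet score (0.8% of cells per 1000 barcodes). Counts scaled to 10000 per cell were log-transformed and clustered with scanpy 1.11.5 (2000 variable genes, 30 principal components, 15 neighbours, Leiden resolution 1, leidenalg 0.10.2) without batch integration. The clustering left out tdTomato, Cdkn2a (the gene of p16) and all genes of fatty acid handling.

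In a cluster, a marker was raised if it reached 20 CPM and 4 times its median across clusters. The class with the largest share of raised markers, 3 or more of them, named the cluster. Where another class reached 75% of that share, the name was given only if its own markers were among the 10 leading genes in no smaller number. These thresholds were set after seeing the data. CPM were taken from UMIs summed over cells, with exact Poisson intervals, and shares with exact (Clopper-Pearson) intervals, both at 95%. Ratios carry conditional exact intervals (scipy 1.17.1). The study compared cells with a Wilcoxon test, which was not used, since cells of 1 library are not replicates. The computation was tested on simulated data. Positions are from GENCODE M21 (30934 of 31054 features matched), and promoter windows from RefSeq. The genes, lists and rules were chosen with earlier results of these data known. Besides the 8 genes, the text names the 3 genes most like each by r, and of the lists the 3 highest by CPM and the 3 largest and 3 smallest ratios at 20 CPM or more. Cluster leading genes, cell markers, and Plin1, Car3, Adipoq and Lipe are named outside this rule, after their values were seen. Alternatives are given in the closing section.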

Additional observations from a re-analysis of the deposited data

Results flagged for a closer look

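Fabp4 had opposite signs of Tom+ against Tom- in different classes in both pairs, and the difference was not tested. The log2 ratios were 0.33 and 0.10 in APC-like cells and 0.37 and 0.26 in macrophage-like cells, against -0.28 and -0.33 in blood endothelial-like cells, where they became 0.09 and 0.09 in cluster 13 alone. Cd36 had 0.21 and 0.036 in macrophage-like cells against -0.49 and -0.62 in blood endothelial-like cells, also not tested. Lpl in APC-like cells had 0.22 in the pair labelled CD45- and -0.32 in the pair labelled CD45+, an untested difference between pairs of the same contrast.

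Some clusters without a name held high levels. No comparison within a class or cluster used them, but the comparison over whole libraries included their cells. Cluster 24, led by Spink8, Klk1 and Npy, held 2021 CPM of Fabp4 in the library labelled CD45+ Tom+. Cluster 15, with macrophage and plasma cell markers together, held 500.1 CPM of Plin2 in that library. Cluster 18, which was led by haemoglobin and cell cycle genes and also raised macrophage markers, held 526 and 579 CPM of Plin2 in the Tom+ libraries labelled CD45- and CD45+.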

How the results depend on the processing

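No paired analysis was run, since each group holds 1 library and the groups compared share fewer than 2 replicate numbers. The class with the highest level of each of the 8 genes was unchanged when mitochondrially encoded and immunoglobulin genes were left out of the totals or cells with shared barcodes were left out. The counts past 1.5-fold did move, and the cause was not tested. The share of all genes past 1.5-fold under each alternative is not given here, so these counts show only how the calls depend on the setting. In APC-like cells of the pair labelled CD45- the count was 1, and it became 2 with no filter on low genes, 0 at 1 mix of clusters, 2 after thinning, 0 with doublets kept and 0 with a looser barcode filter (from 500 genes, mitochondrial share below 20%). In the pair labelled CD45+ it went from 0 to 2 after thinning and 1 with the looser filter. In macrophage-like cells of the pair labelled CD45- it went from 1 to 2 with no filter, to 0 at 1 mix of clusters and, chosen after seeing the data, to 0 without cluster 3. In the pair labelled CD45+ it went from 0 to 2 (Fabp4 and Fabp5) without shared barcodes. In blood endothelial-like cells, all of whose alternatives were chosen after seeing the data, the pair labelled CD45- went from 0 to 1 with each cell weighing the same, 2 without shared barcodes and 1 after thinning, and the pair labelled CD45+ from 3 to 1 with doublets kept and 0 with the looser filter. At Leiden resolution 2 that pair had 42 Tom+ cells and was not run.

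Of single ratios, 13 of 48 changed sign at 1 mix of clusters, 6 of 16 in the largest cluster alone and 5 of 16 without cluster 3, and 7 of 45 moved by over 1.5-fold after thinning. Without shared barcodes, Fabp5 in macrophage-like cells fell from 867 to 475 CPM in the library labelled CD45- Tom- and its ratios became 1.19 and 0.84. With 1 library per group, nothing here separates the sort from the library, and Dgat2 and Acsl1 rest on few UMIs in most classes.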
